A study of Caenorhabditis elegans with 12 samples.

Results

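Choline kinases and the enzymes that lead to phosphatidylcholine were followed as 10 genes of Caenorhabditis elegans, fixed by name: the choline kinase genes ckb-1, ckb-2, ckb-3, ckb-4, cka-1 and cka-2, the CDP-choline synthesis gene pcyt-1, the S-adenosylmethionine synthetase gene sams-1 and the methyltransferase genes pmt-1 and pmt-2. All 10 had a row among the 46891 named rows of the count table. Of these, 8 had enough counts to be tested, and pmt-1 and ckb-4 were listed at 0 in every library. The libraries were made from polyadenylated RNA of whole worms of the wild-type strain N2, after RNA interference (RNAi) of y54g2a.18, the worm counterpart of BCAP31, which codes for a membrane protein of the endoplasmic reticulum (ER), or after the control RNAi of that experiment, with 3 libraries in each group. RNAi lowers the transcript of a chosen gene through double-stranded RNA. The sources used here give neither the age and stage of the worms nor the way the double-stranded RNA was delivered. The labels do not tie the libraries to separate cultures. The p-values therefore set the difference between groups against the scatter of these samples within a group, which may be technical scatter alone. The other experiment of the series, RNAi of rpoa-49 with its own control, is not analysed here, because its table holds 418 counts in all and has no row for any of the 10 genes.

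Phosphatidylcholine is a main phospholipid of cell membranes, the ER among them. In the CDP-choline (Kennedy) pathway, choline kinase phosphorylates choline, an enzyme such as PCYT-1 turns phosphocholine into CDP-choline, and a phosphotransferase joins it to diacylglycerol. Worms also make phosphocholine by methylating phosphoethanolamine, a route they share with plants: PMT-1 carries out the initial methylation and PMT-2 the later ones, with methyl groups from the S-adenosylmethionine that SAMS-1 makes. In worms, loss of sams-1 or pmt-1 is known to lower phosphatidylcholine and to activate the lipid synthesis regulator SBP-1.

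The libraries held 30096438 to 38306576 counts after y54g2a.18 RNAi and 34555880 to 39482828 counts in the controls. The targeted gene, Y54G2A.18, was at 190, 128 and 90.2 CPM (counts scaled to library size by trimmed means, TMM) in RNAi replicates 1, 2 and 3, against 391, 358 and 409 CPM in the controls (log2 fold change -1.51 ± 0.25 SE, adjusted p = 0.00732 by edgeR's quasi-likelihood test), and it overlaps dib-1 on the other strand, whose reads may not be told apart from its own. Ribosomal RNA took 0.0965, 1.34 and 2.06% of the counts in RNAi replicates 1, 2 and 3 and 1.06, 1.69 and 0.219% in the controls. Markers of intestine, epidermis, muscle, neurons, germline, sperm and oocytes were present, with ifb-2, lin-26, hlh-1 and him-3 listed at 0 and opt-2 without a row. Of the 5 epidermal markers, 3 were tested and all 3, dpy-7, rol-6 and sqt-3, fell. Since elt-3 was not tested and lin-26 was at 0, this fall covers these 3 genes and not the epidermis at large. The epidermal markers summed to 183 to 416 CPM after RNAi and 1024 to 1224 CPM in the controls, while those of intestine summed to 483 to 795 CPM after RNAi and 410 to 438 CPM in the controls, those of muscle to 1490 to 2071 CPM after RNAi and 1206 to 1355 CPM in the controls, and those of oocytes to 422 to 525 CPM after RNAi and 521 to 654 CPM in the controls. No tested marker of intestine, muscle or oocytes was called, and the oocyte sums overlapped between the groups. In whole worms, fewer cells of a type and less RNA per cell cannot be told apart. The part of the fall of these epidermal markers, and of the other differences in marker sums, in the results on phosphatidylcholine genes was not tested.

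How the table treats genes with several transcripts bears on each level given here. Of protein-coding genes with a single RefSeq transcript 6.86% were listed at 0 in all 6 libraries, against 47.2% of those with 2 or more. ckb-1, ckb-2, ckb-3, sams-1 and pmt-2 have a single RefSeq transcript, and pmt-1, ckb-4, cka-1, cka-2 and pcyt-1 have 2 to 4. The level of a gene in the second set, the listed 0 of pmt-1 and ckb-4 included, may therefore not measure how strongly worms express it. A count of 0 allows up to 3 counts per library, which is 0.0748 to 0.0934 CPM over the 6 libraries. This bound treats each count as independent and is too low if both reads of a pair were counted.

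ckb-2 rose strongly after y54g2a.18 RNAi and was the only one of the 8 tested genes to pass the test. It stood at 67.4, 116 and 116 CPM in RNAi replicates 1, 2 and 3, against 11.8, 12.2 and 11.04 CPM in the controls. Every RNAi library lay more than 5 times above every control library. RNAi replicate 1, the lowest for ckb-2, was also the one with the most Y54G2A.18 transcript left and the lowest ribosomal RNA share. It was the lowest RNAi library for sams-1 and pmt-2 as well. RNAi replicates 2 and 3 were alike in ckb-2 but stood at 128 and 90.2 CPM for Y54G2A.18. A link between these values was not tested. The means of ckb-2 were 99.9 ± 28.2 CPM after RNAi and 11.7 ± 0.57 CPM in the controls (SD, n = 3 in each group), an 8.57-fold difference. The log2 fold change was 3.10 ± 0.23 (SE), with a 95% interval of 2.56 to 3.63 and an adjusted p of 0.000495 in edgeR. These values rest on 10565 counts after RNAi and 1310 in the controls.

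Against the whole transcriptome, 1 of 8 tested genes of the set was called higher and 0 lower, where 3.97% of all 14290 tested genes were called higher and 5.01% lower (8.98% in either direction). Without RNAi replicate 1 the count of called genes of the set was 2, pcyt-1 being the other. That fit called more genes in all, 2097 (912 higher) against 1283 (567 higher) with all libraries. With all libraries, DESeq2 and limma-voom also called 1 gene of the set higher and 0 lower. In edgeR 3 of the 8 had an unadjusted p under 0.05, against 23.3% of all tested genes. By p-value ckb-2 ranked 19th and by fold change 76th among all tested genes. Of the 74 called genes with a log2 fold change at least that of ckb-2, itself included, 2 had a control mean of at least 10 CPM. This cut lies just under the control mean of ckb-2 (11.7 CPM), and 6951 of the 14290 tested genes reach it. Genes below it can be well counted, such as B0024.4 (log2 fold change 3.65, with 49.1 CPM after RNAi and 3.89 CPM in the controls). Among called genes with a control mean of at least 10 CPM, only ZK105.1 had a higher log2 fold change (4.67, with 366 CPM after RNAi and 14.4 CPM in the controls), a gene named after its values were seen.

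**Figure D1:**
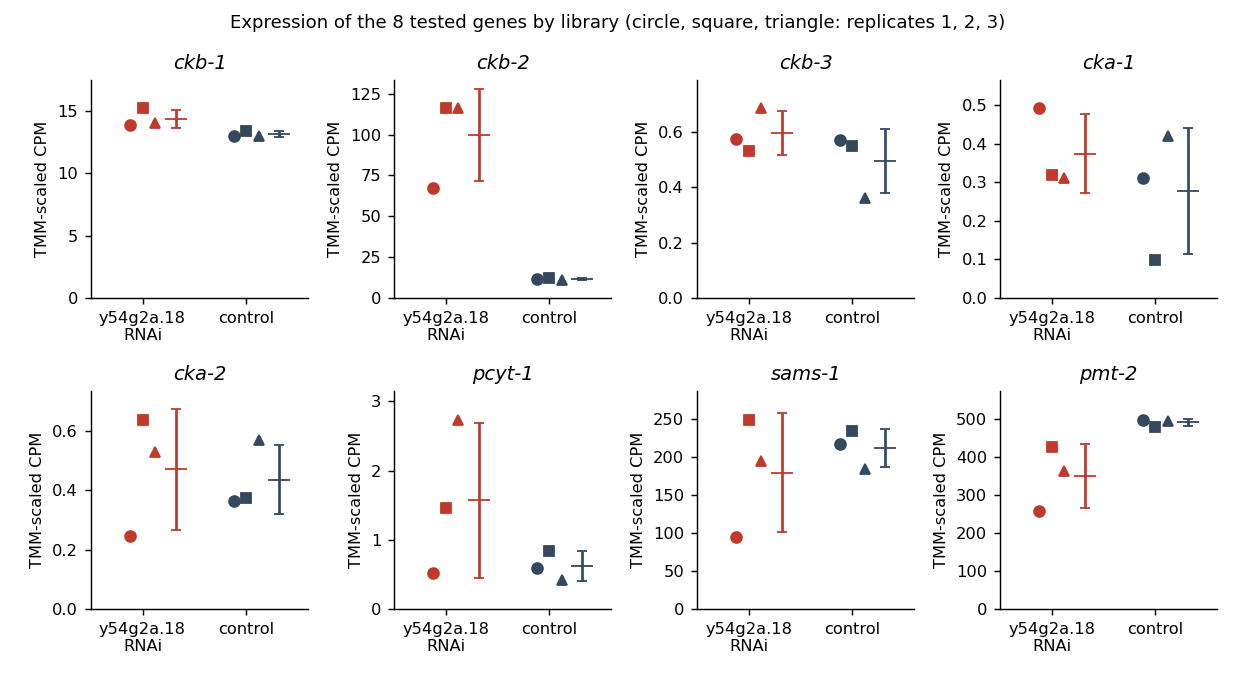
TMM-scaled CPM of the 8 tested genes in each library, with y54g2a.18 RNAi on the left and control on the right of each panel, and each y axis starting at 0. Symbols mark replicates and the bar beside them the mean ± SD (n = 3). The RNAi libraries of ckb-2 sit between 67.4 and 116 CPM, all above the control libraries, while most other panels show overlapping groups.

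The other choline kinase genes did not pass the test. ckb-1, which lies next to ckb-2 on chromosome III, was at 13.8, 15.2 and 14.01 CPM after RNAi and 12.9, 13.4 and 12.99 CPM in the controls. Its groups did not overlap, as for 30.4% of all tested genes, but the difference was small (log2 fold change 0.13 ± 0.15 SE, adjusted p = 0.67 in edgeR). The 95% interval of the ratio of RNAi to control ran from 0.856 to 1.40 for ckb-1, so a change of the size seen for ckb-2, whose interval ran from 5.91 to 12.4, lay outside it. ckb-3, the next gene along, was at a low level, with 0.574, 0.532 and 0.685 CPM after RNAi and 0.571, 0.548 and 0.360 CPM in the controls. Its groups overlapped (log2 fold change 0.26 ± 0.35 SE, adjusted p = 0.71).

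The cka genes held too few counts for a statement on change. cka-1 had 18, 12 and 10 counts after RNAi and 12, 4 and 14 counts in the controls, and cka-2 had 9, 24 and 17 counts after RNAi and 14, 15 and 19 counts in the controls. The groups of both genes overlapped. The intervals were wide, from 0.573 to 3.27 for the ratio of RNAi to control of cka-1 and from 0.528 to 2.23 for cka-2 (adjusted p = 0.68 and 0.91 in edgeR). Exons of cka-2 overlap those of paf-2 on the other strand, and the strand setting of the counting is unknown, so its counts may include reads of paf-2.

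**Figure D2:**
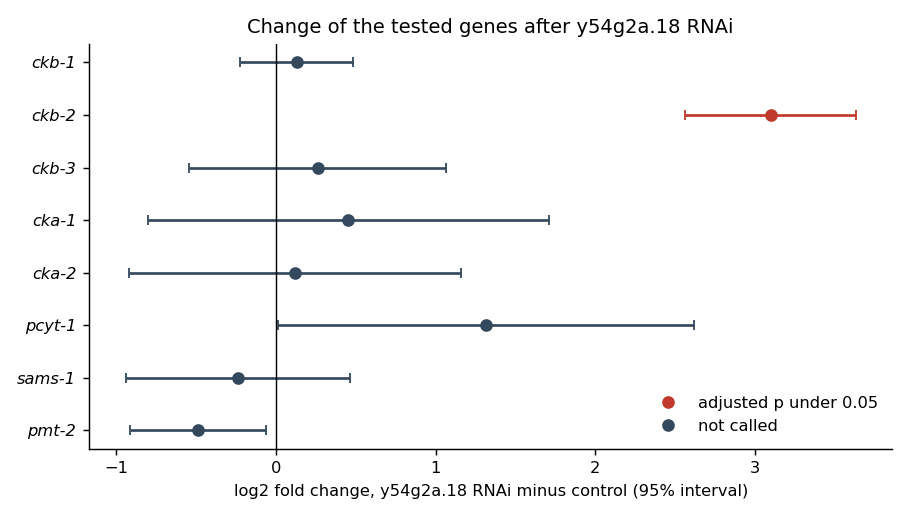
Log2 fold change of each tested gene, y54g2a.18 RNAi minus control, with its 95% interval from edgeR. The interval of ckb-2 runs from 2.56 to 3.63 and that of no other tested gene reaches it except pcyt-1, whose interval runs from 0.017 to 2.62.

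The rise of ckb-2 changed the make-up of the choline kinase transcripts as they were counted. ckb-2 took 81.6, 87.4 and 88.2% of the counts of the 6 choline kinase genes in RNAi replicates 1, 2 and 3, against 45.4, 45.8 and 43.5% in the controls. The exact (Clopper-Pearson) 95% intervals of these shares lay within 80.2 to 89.2% after RNAi and 40.1 to 48.8% in the controls. They take in counting error only, treat each count as independent, and are too narrow if both reads of a pair were counted. The mean share was 85.8 ± 3.59% after RNAi and 44.9 ± 1.21% in the controls (SD, n = 3 in each group). The groups did not overlap, and a two-sided exact permutation test gave p = 0.1, the smallest that 3 against 3 libraries allow. This share does not depend on the scaling between libraries, but it does depend on the lengths of the genes and may undercount those with several transcripts. With each gene scaled to its exon length the share was 87.4 ± 3.31% after RNAi and 48.3 ± 1.02% in the controls. Over ckb-1, ckb-2 and ckb-3 alone, which have a single RefSeq transcript each, it was 86.4 ± 3.51% after RNAi and 46.1 ± 0.76% in the controls.

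Summed over all choline kinase genes, expression was 82.5, 133 and 132 CPM after RNAi and 26.0, 26.6 and 25.4 CPM in the controls. Without ckb-2 the sum was 15.8 ± 0.79 CPM after RNAi and 14.3 ± 0.11 CPM in the controls (SD, n = 3 in each group). Nearly all of the 89.7 CPM by which the summed means differed was therefore ckb-2 transcript. The ratio of ckb-2 to ckb-1 counts, which is not scaled to length and is compared only between the groups, was 4.87, 7.65 and 8.29 after RNAi and 0.910, 0.909 and 0.850 in the controls.

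**Figure D3:**
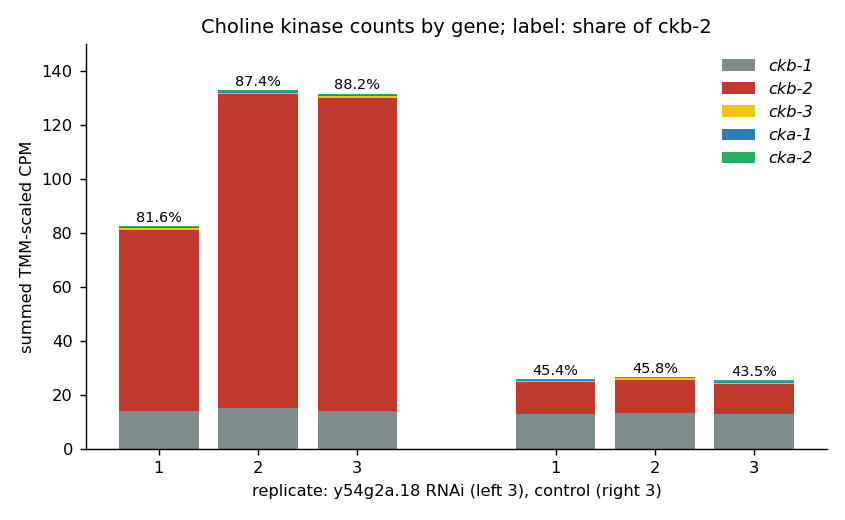
Summed TMM-scaled CPM of the choline kinase genes per library, from 0, coloured by gene, with the 3 y54g2a.18 RNAi replicates on the left and the 3 controls on the right. The label above each bar is the percentage of choline kinase counts that came from ckb-2, 81.6 to 88.2% after RNAi and 43.5 to 45.8% in the controls.

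Per kilobase of exon, pmt-2 was the most abundant of the genes with a single RefSeq transcript. In the RNAi libraries pmt-2 averaged 223 ± 53.9 CPM per kilobase, ckb-2 83.4 ± 23.5, sams-1 79.7 ± 34.8, ckb-1 10.5 ± 0.54 and ckb-3 0.539 ± 0.071 (SD, n = 3). In the control libraries the values were 312 ± 6.26 for pmt-2, 94.1 ± 11.2 for sams-1, 9.73 ± 0.47 for ckb-2, 9.64 ± 0.18 for ckb-1 and 0.445 ± 0.104 for ckb-3. In the controls ckb-1 and ckb-2 did not differ beyond their spread, and after RNAi ckb-2 and sams-1 did not. Exon lengths were those of Ensembl for WBcel235, which may differ from the annotation the authors counted on.

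ckb-1, ckb-2 and ckb-3 follow each other on the same strand of chromosome III, with no overlap of exons. Of the 10 protein-coding genes within 20 kb of these 3 genes, themselves included, 2 were called higher, against 3.97% of all tested genes: ckb-2, around which the window was drawn, and pals-28, a gene of the pals family. With 1 call beside ckb-2, nothing particular to the window is read from the count. pals-28 was at 2.80 ± 0.71 CPM after RNAi and 0.342 ± 0.13 CPM in the controls (SD, n = 3; log2 fold change 3.02 ± 0.38 SE, adjusted p = 0.00203 in edgeR). Between them lie ckb-3, pals-26 (log2 0.41, adjusted p = 0.24), B0284.3 (log2 0.06, adjusted p = 0.90) and pals-27 (log2 0.56, adjusted p = 0.27). On the other side, mnp-1, the gene before ckb-1, had a log2 fold change of 0.90 that did not pass (adjusted p = 0.097).

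**Figure D4:**
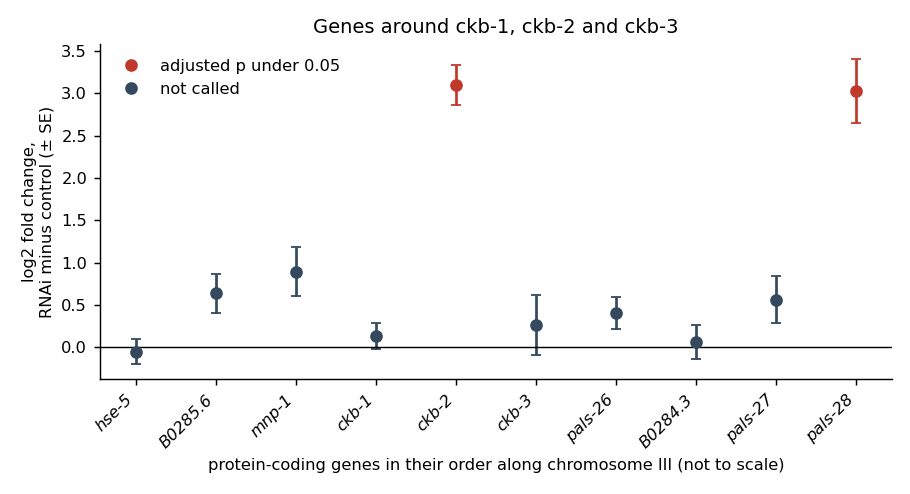
Log2 fold change ± SE, y54g2a.18 RNAi minus control, of protein-coding genes in their order along chromosome III around the ckb genes, spaced evenly and not to scale. ckb-2 (3.10) and pals-28 (3.02) stand apart from the genes between and beside them, which lie between -0.05 and 0.90.

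pcyt-1, whose product turns phosphocholine into CDP-choline, did not pass the test. It was at 0.519, 1.46 and 2.74 CPM in RNAi replicates 1, 2 and 3, against 0.597, 0.847 and 0.420 CPM in the controls. RNAi replicate 1 lay within the controls and the other RNAi libraries lay above them. Within each group the order of the pcyt-1 values was that of the ribosomal RNA shares given above, and the part of RNA quality in its values was not tested. The log2 fold change was 1.32 ± 0.57 (SE, adjusted p = 0.21 in edgeR), from 162 counts after RNAi and 71 in the controls. It was 1.74 without RNAi replicate 1, and then passed (adjusted p = 0.031), and 0.66 without RNAi replicate 3 (adjusted p = 0.50). With the ribosomal RNA share as a covariate it was 1.23 and passed (adjusted p = 0.037). The fits in which pcyt-1 passed called more genes in all: 2097 without RNAi replicate 1 and 2214 with the covariate, against 1283.

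On the methylation route, pmt-2 was lower in every RNAi library than in any control library, without passing the test. It was at 260, 428 and 364 CPM in RNAi replicates 1, 2 and 3, against 499, 480 and 496 CPM in the controls. Such groups without overlap were seen for 30.4% of all tested genes. The RNAi libraries spread more widely, with an SD of 84.9 CPM, than the control libraries, with an SD of 9.85 CPM. The means were 350 CPM after RNAi and 492 CPM in the controls, 1.40-fold lower after RNAi. The log2 fold change was -0.49 ± 0.19 (SE), with a 95% interval of -0.91 to -0.06 before adjustment, an unadjusted p of 0.029 and an adjusted p of 0.16 in edgeR. It was -0.31 without RNAi replicate 1. Depth does not limit this gene, which had 37277 counts after RNAi and 55017 in the controls.

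sams-1, which supplies the methyl donor, was at 94.99, 250 and 195 CPM in RNAi replicates 1, 2 and 3, against 218, 234 and 185 CPM in the controls. The groups overlapped, and RNAi replicate 1 was the lowest of the 6 libraries. The log2 fold change was -0.24 ± 0.31 (SE, adjusted p = 0.70 in edgeR), with a 95% interval of the ratio of RNAi to control from 0.521 to 1.38. Without RNAi replicate 1 the log2 fold change was 0.07 (adjusted p = 0.81). With this spread between libraries, changes of sams-1 to a ratio between 0.521 and 1.38 were not excluded.

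The genes whose profile over the 6 libraries was most like that of ckb-2 were ifas-1, T20D4.7, sdz-35, Y41C4A.32 and B0024.4, among 7010 other genes with a mean of at least 10 CPM. Likeness was the root-mean-square difference of log2 CPM relative to the control mean, and it was 0.31, 0.34, 0.36, 0.38 and 0.50 for these 5 genes. T20D4.7 was at 61.8, 95.03 and 102 CPM in RNAi replicates 1, 2 and 3, against 13.1, 13.3 and 15.5 CPM in the controls, and sdz-35 at 46.7, 66.2 and 68.5 CPM after RNAi, against 10.9, 8.62 and 10.1 CPM in the controls. ifas-1, the closest, was at 18.95, 24.3 and 18.7 CPM after RNAi, against 2.96, 2.69 and 3.001 CPM in the controls. RNAi replicate 1 was the lowest RNAi library in T20D4.7, sdz-35 and Y41C4A.32, as in ckb-2, but replicate 3 was the lowest in ifas-1 and replicate 2 in B0024.4. Log2 fold changes of the 5 genes ran from 2.62 to 3.65, and since the genes were picked for likeness to ckb-2 over the same libraries, the choice itself fixed that they were higher after RNAi.

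Around these enzymes, 6 lists of 77 genes held 76 rows and 60 tested genes, of which 2 rose and 2 fell in edgeR, where 3.97% of all tested genes rose and 5.01% fell. Fewer were called without any one control library (1, 1 and 0 without replicates 1, 2 and 3) or without RNAi replicate 3 (2), and more without RNAi replicate 1 (7). Calls over all genes moved the same way: 646, 664 and 667 without control replicates 1, 2 and 3. They were 1128 without RNAi replicate 3 and 2097 without RNAi replicate 1, against 1283. In addition, 14 of the listed genes were at 0 in every library, among them the other S-adenosylmethionine synthetase genes sams-3, sams-4 and sams-5, the phosphotransferase gene cept-1 and the CDP-ethanolamine synthesis gene pcyt-2.1.

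Of the later steps of the CDP-choline and CDP-ethanolamine pathways and of phosphatidylserine synthesis, 6 of 8 genes were tested and 0 rose or fell in edgeR, with 1 unadjusted p under 0.05. DESeq2 and limma-voom also called 0. That gene was pssy-2, a phosphatidylserine synthase gene, at 35.9, 32.2 and 29.98 CPM after RNAi and 41.4, 43.8 and 44.2 CPM in the controls (log2 fold change -0.40 ± 0.14 SE, adjusted p = 0.13). The groups of pssy-2 did not overlap, as for 30.4% of all tested genes. The phosphotransferase gene cept-2, which acts after PCYT-1, was at 44.4 ± 9.34 CPM after RNAi and 48.7 ± 8.19 CPM in the controls (SD, n = 3; adjusted p = 0.74). lpin-1, the lipin gene that makes diacylglycerol, was at 114 CPM in both groups. The median log2 fold change was 0.01 in the list and 0.02 over all tested genes.

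In the methionine cycle and folate list 5 of 13 genes were tested, edgeR, DESeq2 and limma-voom each called 0, and no unadjusted p was under 0.05 in edgeR. metr-1, the methionine synthase gene, had the smallest p, with 51.1, 95.4 and 158 CPM in RNAi replicates 1, 2 and 3 and 143, 191 and 105 CPM in the controls (log2 fold change -0.53 ± 0.38 SE, adjusted p = 0.46). Its groups overlapped, and its values followed the order of the ribosomal RNA shares within each group. With that share as a covariate the log2 fold change was -0.56 and passed (adjusted p = 0.045), in a fit that called 2214 genes, against 1283. The list had its median log2 fold change at -0.06.

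Of 16 tested genes of SBP-1 lipid synthesis, 1 fell and 0 rose, with a median log2 fold change of 0.03. The gene that fell was fat-5, a palmitoyl-CoA desaturase gene, at 183, 176 and 117 CPM after RNAi and 322, 282 and 349 CPM in the controls (log2 fold change -1.002 ± 0.19 SE, adjusted p = 0.014 in edgeR). The call was lost without control replicate 1 or 3 (adjusted p = 0.068 and 0.069). The regulator sbp-1 itself was at 22.9 ± 10.002 CPM after RNAi and 20.2 ± 3.47 CPM in the controls (SD, n = 3; adjusted p = 0.80), and the stearoyl-CoA desaturase gene fat-7 at 9.13 ± 3.51 CPM after RNAi and 9.72 ± 1.06 CPM in the controls (adjusted p = 0.89).

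In the list of the ER unfolded protein response 16 of 17 genes were tested, 2 rose and 0 fell, where 3.97% of all tested genes rose and 5.01% fell. The median of their log2 fold changes was 0.29, against 0.02 over all tested genes, and 14 of the 16 values were above 0. These genes varied together across the RNAi libraries, so the 16 values are not independent, and no change of the list as a whole is read from them. hsp-4, a gene of the ER chaperone BiP, was at 135, 262 and 217 CPM in RNAi replicates 1, 2 and 3, against 92.5, 94.7 and 84.1 CPM in the controls (log2 fold change 1.18 ± 0.23 SE, adjusted p = 0.014 in edgeR). The other BiP gene, hsp-3, did not pass (log2 fold change 0.68 ± 0.33 SE, adjusted p = 0.26). It was at 105, 275 and 237 CPM after RNAi and 122, 160 and 102 CPM in the controls, and its groups overlapped. dnj-27, which codes for a co-chaperone with a J domain, was at 10.1, 21.6 and 17.6 CPM after RNAi and 8.46, 7.85 and 6.51 CPM in the controls (log2 fold change 1.11 ± 0.28 SE, adjusted p = 0.047). RNAi replicate 1 was the lowest RNAi library in hsp-4 and dnj-27, as in ckb-2. This order was not particular to them. It was also seen in sams-1, in pmt-2 and in uncalled genes of the list. Among these were ire-1 (11.4, 13.7 and 21.4 CPM in RNAi replicates 1, 2 and 3) and xbp-1 (192, 351 and 253 CPM). The fold change of ckb-2 was higher than those of hsp-4 and dnj-27, a difference between genes that was not tested. hsp-4 and dnj-27 each have 2 RefSeq transcripts. The call of hsp-4 was lost whichever control library was left out (adjusted p of 0.065, 0.059 and 0.075 without replicates 1, 2 and 3), as was that of dnj-27 (0.125, 0.149 and 0.178), which was also lost without RNAi replicate 2 or 3 (0.106 and 0.093), in limma-voom (0.068), with total counts (0.052) and in 1 further setting. The sensor genes of the response did not pass: ire-1 had a log2 fold change of -0.19, pek-1 of 0.26 and atf-6 of 0.09 (adjusted p of 0.74, 0.74 and 0.90), and xbp-1, whose product is activated by splicing that these counts do not resolve, of 0.08 (adjusted p = 0.87).

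The users of choline and of phosphatidylcholine had 1 call. Of 7 tested genes of choline uptake and acetylcholine edgeR, DESeq2 and limma-voom each called 0. No unadjusted p was under 0.05 in edgeR, and the median log2 fold change was 0.15. The smallest p was that of cha-1, the choline acetyltransferase gene of cholinergic neurons, at 9.17 ± 4.15 CPM after RNAi and 6.89 ± 0.81 CPM in the controls (SD, n = 3; log2 fold change 0.41, adjusted p = 0.47). Without RNAi replicate 2 its log2 fold change was -0.02. Of 10 tested genes that use or remodel phosphatidylcholine 1 fell, where 5.01% of all tested genes fell. The median log2 fold change of these genes was 0.09. The gene that fell was sms-5, of the sphingomyelin synthase family, at 0.874, 1.30 and 0.685 CPM after RNAi and 2.00, 3.19 and 3.00 CPM in the controls (log2 fold change -1.51 ± 0.32 SE, adjusted p = 0.022 in edgeR). sms-5 has 2 RefSeq transcripts, and its call was lost without control replicate 2 or 3 (adjusted p = 0.102 and 0.090) or without RNAi replicate 3 (0.056).

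**Figure D5:**
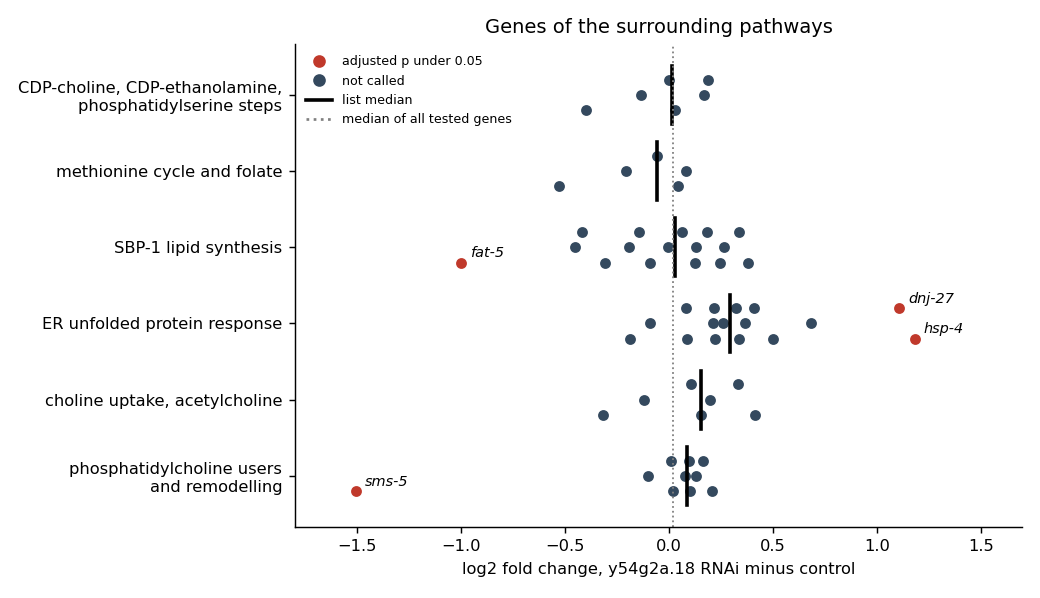
Log2 fold change, y54g2a.18 RNAi minus control, of the 60 tested genes of 6 surrounding pathways, a point per gene and a black bar at the median of each list. Red points passed an adjusted p of 0.05, and the dotted line is the median of all tested genes (0.02). The named genes hsp-4 and dnj-27 lie to the right and fat-5 and sms-5 to the left, with the other 56 not called.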

How the data were processed

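The authors deposited raw counts per gene, with no normalization and a column per library. The submitters' processing notes list HISAT2 2.2.1, DESeq2 1.16.1, featureCounts 1.28.1 and FastQC 0.11.9, with no role for any. Build, annotation, strand setting and handling of shared reads were not given in the sources used here. Rows with dates in place of names (12, at most 0.0247% of a library) were left out. Of counts from 1 to 20, 71.5% were even, as when both mates are counted, so counting intervals are too narrow.

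Genes were filtered with filterByExpr (minimum count 10, total 15), scaled by trimmed means (TMM) and tested in edgeR 4.0.16 (R 4.3.3) with the group as the only term, with Benjamini-Hochberg adjustment over 14290 genes and a threshold of 0.05. Standard errors are the absolute log2 fold change over the root of F. Intervals use the t distribution. RefSeq and Ensembl (WBcel235) gave transcript numbers, exon lengths and gene order only. Steps were tested on simulated data, with 50 genes changed at each size. Only genes with an expected count of at least 50 per library before the change were used. Of changes of 1.5-, 2-, 4- and 8-fold, 2, 30, 98 and 100% were recovered, and 11 of 126 calls were false. A gene that was not called may therefore still have changed by 1.5- or 2-fold. For cka-1, cka-2, ckb-3 and pcyt-1, whose control counts lay below 50, these recoveries do not hold, and larger changes may also have been missed.

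The genes, lists and tests were chosen with earlier results of these data known. Named in the text are the 10 genes, Y54G2A.18, up to 4 called genes per list or else the one with the smallest p, and the 5 genes most like ckb-2 (log2 of CPM + 0.1); others were chosen after their values were seen. Alternatives were other scalings and filters, DESeq2 1.42.0, limma-voom (limma 3.58.1), the replicate number as a block, the ribosomal RNA share as a covariate and leaving out each library. Libraries of a group differed by more than counting noise (chi-square per degree of freedom 22.7 to 171).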

Additional observations from a re-analysis of the deposited data

How the results depend on the processing

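ckb-2 was called in all 16 alternatives, with log2 fold changes of 2.97 to 3.32 and adjusted p of at most 0.00516. Its share rose by 39.02 percentage points per exon length and 40.3 over single-transcript kinases (both chosen after seeing the data), against 40.9, and by 39.7 to 42.9 without single libraries. Y54G2A.18 was called in all 16. pmt-2 was called in none (adjusted p of 0.0523 to 0.402).

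Without single libraries 646 to 2097 genes were called (224 to 912 higher, 422 to 1185 lower), against 1283 (567 and 716). For the set, 1 to 2 were higher; for the pathway genes 0 to 7 were called, against 4. By list, this gave 0 to 5 higher for the ER response and 0 to 1 lower for lipid synthesis and for phosphatidylcholine users. With the ribosomal RNA share as a covariate 2214 genes were called (1048 higher, 1166 lower), 2 of the set were higher and 7 pathway genes were called, with 1 lower each in the CDP-choline and methionine lists (pssy-2 and metr-1); the cause was not tested. With only genes of 1 RefSeq transcript, chosen after seeing the data, 1 pathway gene was called, with 0 in the ER list and 0 among phosphatidylcholine users, since their called genes have several transcripts. The ER list had 1 called with total counts and 1 in limma-voom. Signs reversed for genes that were not called: cka-2 (-0.00068 without control replicate 1 and -0.17 without RNAi replicate 2, -0.17 to 0.43 without single libraries), sams-1 (0.067 without RNAi replicate 1, -0.55 to 0.067 without single libraries) and cha-1 (-0.016 without RNAi replicate 2, -0.016 to 0.65 without single libraries).

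Same-numbered libraries did not deviate together (correlations of 0.0074, 0.045 and -0.37), while unlike-numbered ones ran from -0.42 (RNAi 1 with control 2) to 0.40 (RNAi 3 with control 2). Pairing by number was therefore not seen, but 3 libraries in each group cannot exclude it. With the replicate block 364 genes were called higher, against 567, ckb-2 stayed called (log2 3.06, adjusted p = 0.00117), and the ER list had 1 call, that of dnj-27 being lost (log2 1.05, adjusted p = 0.0856).

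Low counts limit cka-1, cka-2 and ckb-3, and spread between the RNAi libraries limits pcyt-1, pmt-2 and sams-1.

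The share of ckb-2 per coding length was not run. cka-1, cka-2 and pcyt-1 have no value where at least 1 CPM in 3 libraries was required, or with only genes of 1 RefSeq transcript.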
